A study of Strongylocentrotus purpuratus with 2 samples.

Results

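Chromatin modifiers and remodelers are the enzymes and subunits that write, remove or read chemical marks on histones and DNA, or move nucleosomes. Their transcripts were followed in entire embryos of Strongylocentrotus purpuratus, the purple sea urchin, at 30 hours after fertilization. Members were chosen by gene name alone, from the stems Hdac, Kat, Myst, Kmt, Mll, Setd, Ehmt, Suv, Ezh, Kdm, Jmjd, Jarid, Prmt, Dnmt, DNA methylase, Tet, Smarc, Chd, Ino80, Brd and Cbx. The rule found 62 rows for 59 transcript models, of which 16 were blank in both tables and 43 had a value, out of 12943 models with a value in all. Eggs were injected after fertilization with glycerol, as the control, or with morpholino, an antisense oligonucleotide, against soxC, the gene of a SoxC family transcription factor. About 1000 embryos grown at 15 °C in artificial sea water made up each of the 2 samples, with 1 library per group. A control morpholino was not among the samples, so an effect of targeting soxC cannot be told apart from that of any morpholino, or from a difference in culture or stage. Of 19 marker names for skeletogenic, pigment, gut, aboral ectoderm and neural or ciliary band cells, 10 had a value, and each of these had reads in both libraries. Here and below, a relative log2 ratio is the ratio of SoxC morpholino over control with the median of all measured models set to 0. Measured chromatin members ran from -1.29 to 1.24 in this ratio. Of the markers with a value, Sp-Alx1 and Sp-SoxC lay above that range and the others within it. The ratio was 0.52 for the pigment cell gene Sp-gcm, 0.37 for the skeletogenic gene Sp-Msp130L and 1.73 for Sp-Alx1, the last on 2 and 7 reads. The gut genes were at -0.48 for Blimp1, on 22 and 14 reads, -0.37 for Sp-Gatae and 0.08 for Sp-FoxA, and the aboral ectoderm gene Sp-spec2a was at -0.19. Sp-Soxb1 and Sp-Soxb2, of ectoderm, were at 0.01 and -0.01, and Sp-SoxC, the gene targeted, was at 2.05. The part of such marker shifts in the values of the chromatin genes was not tested.

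Acetyl groups added by acetyltransferases open chromatin and are removed by deacetylases, while methyl groups on lysines mark active or silent genes according to the residue and are removed by demethylases. Bromodomain and chromodomain proteins bind these marks, and remodelers such as SWI/SNF, INO80 and the Chd proteins use ATP to slide, exchange or eject nucleosomes. Most of these proteins act as subunits of large complexes that are shared by many cell types. In mammals, SWI/SNF complexes exchange subunits as neural progenitors become neurons, and the Polycomb complexes hold developmental regulators silent.

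The deposited value is a normalized signal per model, and dividing it by the value of 1 read gave 4414503 control reads and 4763997 reads for the library labelled SoxC morpholino. Each ratio below is that of the deposited signal between these libraries, and the range in parentheses is an exact 95% counting interval, which leaves out any difference between embryo batches. A model counts as measured at a mean of 1 CPM or more, the recovered reads scaled to counts per 1000000 reads, which 38 of the 43 members passed. A measured model met the size rule when the signal differed at least 2-fold and the interval did not reach a ratio of 1. Over all 8819 measured models the median log2 ratio was -0.21, so a relative log2 ratio, with that median set to 0, is given beside the deposited one. Levels were not compared between genes, because the transcript lengths were not at hand. The soxC model itself, Sp-SoxC, had 4016 and 14959 reads, and since a morpholino need not lower its target's transcript, this does not check the labels.

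Most chromatin genes differed little between the libraries. Of the 38 measured members, 1 was lower by the size rule, Sp-SMARCB1, and none was higher. Among all measured models 4.75% were lower and 0.658% higher, so neither count stands apart from the background. The median log2 ratio of the members was -0.28 as deposited, beside -0.21 for all measured models. With the overall median set to 0, 23 members lay below it and 15 above, and their interquartile range ran from -0.29 to 0.21, beside -0.28 to 0.26 for all models. The RNA came from whole embryos, so fewer cells of a type and less RNA per cell cannot be told apart in any of these values.

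How far a single member can be read depends on its reads. The 25 members with at least 100 reads over both libraries ran from -0.57 to 0.77 in relative log2 ratio, and 24 of them lay within 1.5-fold of the overall median (96%, beside 93.5% of all 4567 models with as many reads). The 13 members with fewer reads ran from -1.29 to 1.24, and the upper end of their intervals was a median of 7.98 times the lower end, against 1.4 times for the others. A finer view asks whether a member's interval lay wholly on one side of the overall median ratio. It lay below for 9 measured members and above for 5, beside 10.2% and 12.4% of all measured models. With at least 100 reads the counts were 9 of 25 below and 4 of 25 above, or 36% and 16%, beside 14.3% and 20.3% of all such models. These members had a median of 584 reads and all such models 428, and more reads narrow an interval on both sides. The part of read depth in these shares was not tested. The 9 that lay below were Sp-Smarcd1L, Sp-Hdac3, Sp-Setd6, Sp-Smarce1, Sp-Setd8l-4, DNA methylase, Sp-SMARCC2, Sp-Hdac4 and Sp-Ino80d, and the 5 above were Sp-Ehmt1, Sp-Chd3, Sp-Brd1, Sp-SuVar 3-9 and Sp-Setd8.

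**Figure D1:**
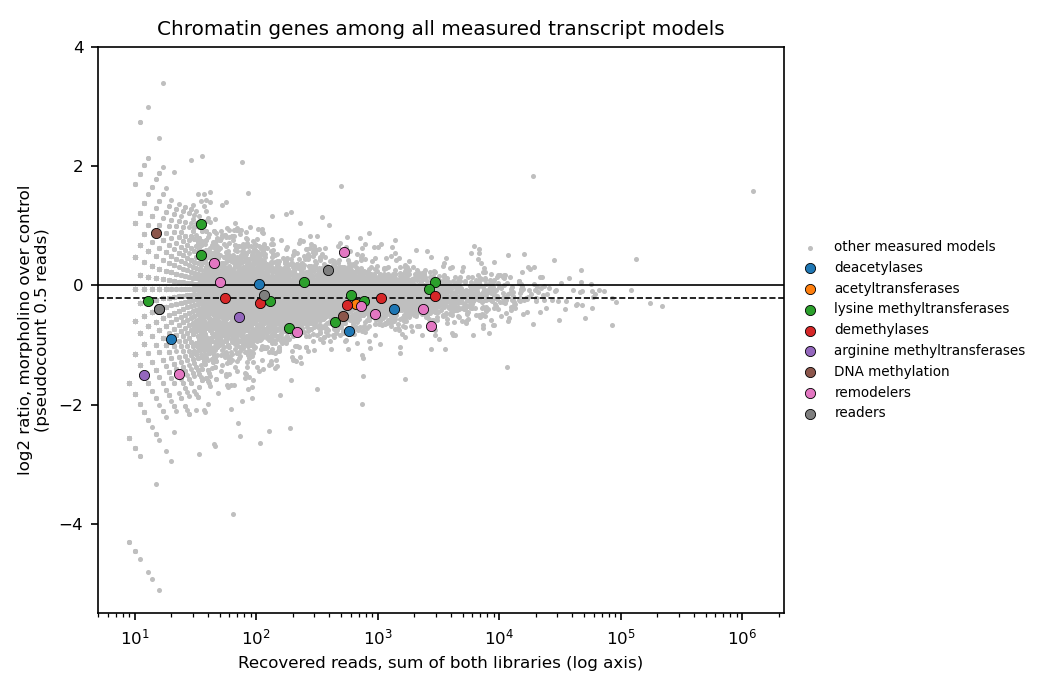
Each point is a measured transcript model, with recovered reads of both libraries on a log x axis and the log2 ratio of SoxC morpholino over glycerol control on the y axis; colours mark the 38 chromatin members by role and grey the other models. The dashed line is the median of all models at -0.21, and the members spread around it within the cloud of other models, most widely where reads are few.

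The 4 measured SWI/SNF remodeler subunits were each lower in the library labelled SoxC morpholino, under every scaling tried. A scaling moves all log2 ratios by 1 constant, at most 0.21 here, and only 6 of the 38 members changed sign under any scaling. An unchanged sign therefore adds no support for these subunits. A ratio below 1 as deposited was common, at 71.5% of all measured models and 28 of the 38 members. Sp-Smarce1, an HMG-box subunit and the remodeler model with the most reads, had a signal of 4402.7 against 2737.1, control first here and below. That is 1.61-fold lower (1.49 to 1.74), from 1663 and 1076 reads, a relative log2 ratio of -0.48. Sp-SMARCB1, a core subunit that contacts the nucleosome, went from 45.0 to 15.3, or 2.94-fold lower (1.11 to 9.13). It rests on 17 and 6 reads, its interval included the overall median, and with that median set to 0 it no longer met the size rule. The following subunits are named after their values were seen. Sp-Smarcd1L, of the BAF60 family that links the complex to transcription factors, went from 357.4 to 208.6 and was 1.71-fold lower (1.29 to 2.28). Sp-SMARCC2, a scaffold subunit, went from 1432.3 to 1022.6 and was 1.4-fold lower (1.23 to 1.6).

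Summed, these 4 subunits had 2356 control and 1566 morpholino reads, 1.57-fold lower (1.47 to 1.67), or -0.44 in relative log2 ratio. Most of these reads belong to Sp-Smarce1, and without it the other 3 were 1.47-fold lower (1.31 to 1.66). A sum wholly below the median of all measured models was not particular to SWI/SNF. In relative log2 ratio, INO80 summed to -0.16 (-0.26 to -0.06) and NuRD to -0.18 (-0.26 to -0.11). PRC2, the H3K27 methyltransferase complex, was at -0.22 (-0.41 to -0.03). For the Tip60, Setd8, H4K20 and Jarid1 sums the interval included that median, and the H3K9 enzymes lay above it, at 0.27 (0.17 to 0.38). Partner subunits of SWI/SNF outside the name rule are also in the data. Sp-Phf10, a PHD-finger subunit of the PBAF form, went from 317.7 to 170.4 and was 1.86-fold lower (1.37 to 2.55). Sp-Dpf2, whose model also carries the name Sp-Dpf2l, went from 185.3 to 122.1 and was 1.52-fold lower (1.04 to 2.24). Sp-Arid2, which defines PBAF, was nearly level, at 415.7 and 399.4. Together, 6 of these 7 subunit models lay below the overall median, and Sp-Arid2 lay above it at 0.15. The whole interval lay below for 4 of the 7, beside 10.2% of all measured models. All but Sp-SMARCB1 had at least 100 reads, and among all models with as many reads the share was 14.3%. This set was put together after its values were seen. The catalytic ATPase of SWI/SNF is not among the members with a value, so it was not analysed here.

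The other remodelers went in different directions. Sp-Chd3, named for the ATPase of the NuRD complex, was the highest remodeler, with a signal of 550.7 in the control against 814.0. The ratio was 1.48-fold higher (1.24 to 1.77), from 208 and 320 reads, and its relative log2 ratio of 0.77 ranked 68 from the top among the 4567 models with at least 100 reads. Of INO80, which slides nucleosomes and exchanges histone variants, 3 subunit models were measured, and 2 of them were lower. Sp-Ino80d went from 3457.6 to 2640.4, 1.31-fold lower (1.21 to 1.42), and Sp-Ino80e from 1066.9 to 836.9, 1.27-fold lower (1.1 to 1.48). Sp-Ino80b went from 50.3 to 66.1, 1.31-fold higher (0.7 to 2.51), on 19 and 26 reads, so its direction is within counting error. Summed, the 3 INO80 models had 1728 and 1393 reads, 1.29-fold lower (1.2 to 1.39). Sp-Smarca3, another name for HLTF, a translocase in replication fork repair, had 63.5 and 66.1. Sp-Smarcal1, an annealing helicase that restarts stalled replication forks, had 2 and 0 reads and is too thinly covered for a ratio, and Sp-Smarcad-1 was blank. Over the 9 measured remodelers the relative median was -0.18, with 6 below the overall median and 3 above.

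**Figure D2:**
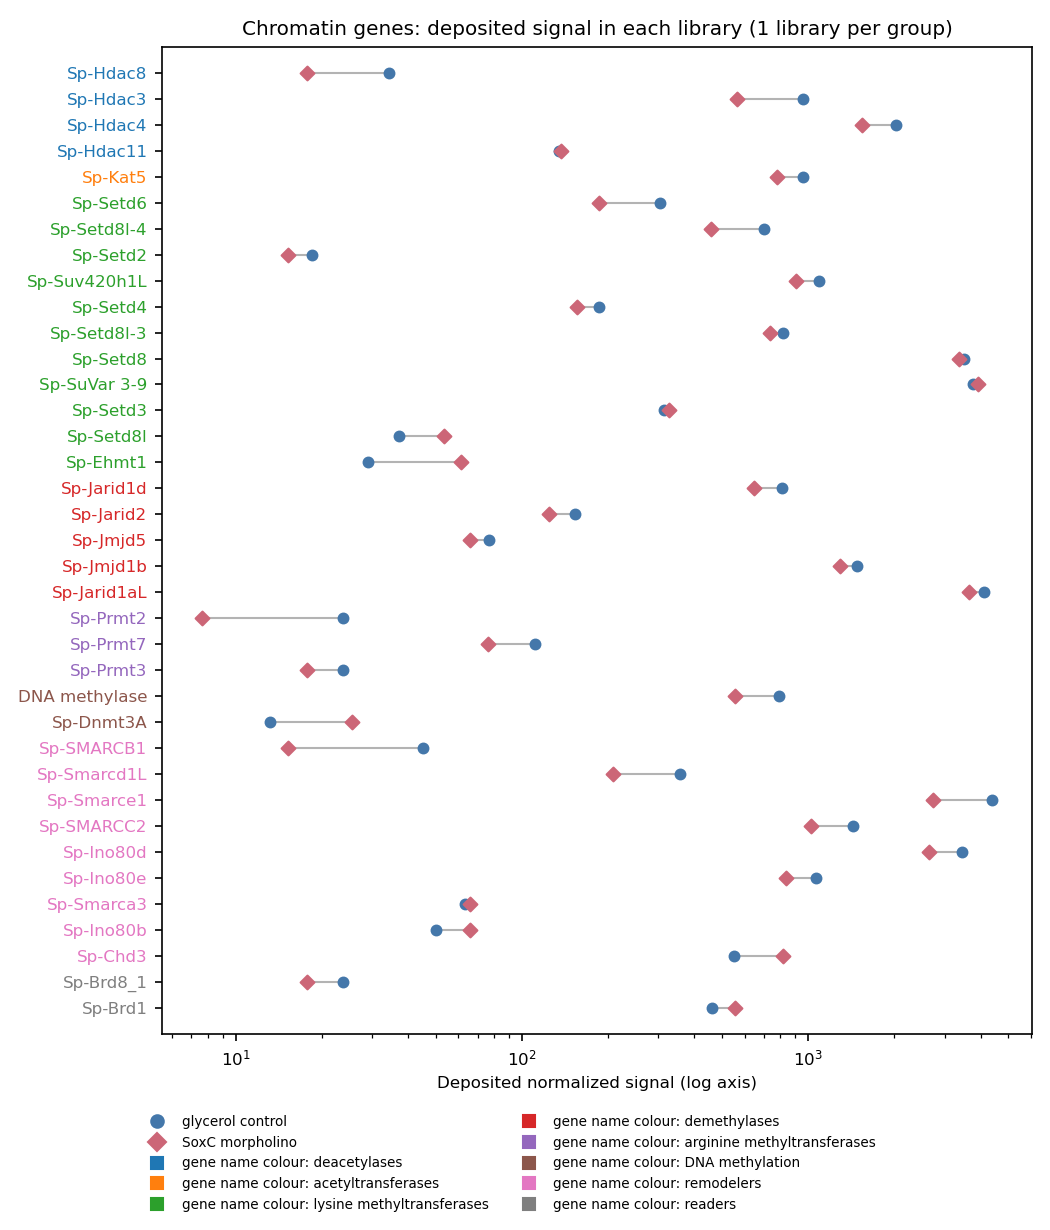
Deposited normalized signal on a log x axis for 37 measured chromatin genes, 1 per row, as circles for glycerol and diamonds for SoxC morpholino, with 1 library per group and gene names coloured by role. The pairs for the Smarc subunits Sp-SMARCB1, Sp-Smarcd1L, Sp-Smarce1 and Sp-SMARCC2 have the diamond to the left, and Sp-Chd3, from 550.7 to 814.0, has it to the right.

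Histone deacetylases remove acetyl groups and mostly act in repressor complexes. Of 4 measured models, 3 lay below the overall median and 1 above, and none met the size rule. Sp-Hdac4, a class IIa enzyme and the deacetylase with the most reads, went from 2022.7 to 1544.1 and was 1.31-fold lower (1.18 to 1.46). Sp-Hdac8, a class I enzyme, went from 34.4 to 17.8 on 13 and 7 reads, 1.93-fold lower (0.717 to 5.72), which counting error alone does not separate from a ratio of 1. Sp-Hdac11, the class IV enzyme, was the highest, at 135.0 and 137.4. Sp-Hdac3, named after its value was seen, was the lowest deacetylase with at least 100 reads. It went from 958.4 to 564.7, 1.7-fold lower (1.43 to 2.01), from 362 and 222 reads, and ranked 169 from the bottom of the 4567 models with at least 100 reads. Sp-Hdac6 and Sp-Hdac4L were blank.

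The list of deacetylase partners, which also takes in the sirtuins, did not share 1 direction. Of its 16 measured models none met the size rule, 8 lay below the overall median, and their relative median was -0.02. Sp-Tbl1xr1, a subunit of the Hdac3 corepressor complex in mammals, was at 0.02 relative, from 29.1 and 25.4. Sp-Rcor3, of the CoREST family that joins deacetylases to a lysine demethylase, went from 820.7 to 463.0 and was 1.77-fold lower (1.47 to 2.14). The lowest was an Sp-Mta1 model (WHL22.580179.0), named for a NuRD subunit, at -0.82 relative but with 20 and 10 reads. A second model of that name (WHL22.580176.1) went from 3505.2 to 2190.2 and was 1.6-fold lower (1.47 to 1.75). The highest was Sp-Sirt-2, an NAD-dependent deacetylase of the sirtuin family, from 211.8 to 315.4, 1.49-fold higher (1.12 to 2). Within NuRD, the ATPase model Sp-Chd3 was thus above the overall median, while both Sp-Mta1 models, the histone chaperone Sp-Rbbp-4 at -0.17 and Sp-Mbd2L at -0.07 were below it. The Sp-Mbd2L model also carries the name Sp-Med2, so its reads may belong to another gene.

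Acetyltransferases were the thinnest role among the members. Sp-Kat5, the Tip60 enzyme that acetylates H4 and H2A variants, had 958.4 and 775.8, 1.24-fold lower (1.06 to 1.44) and -0.10 in relative log2 ratio. Sp-Myst2_1 had 2 and 3 reads, and Sp-Myst2 and Sp-Myst3L were blank. The 11 measured models of acetyltransferase complexes outside the name rule had a relative median of -0.07, with none past the size rule. They ran from Sp-Tada3L, an adaptor of the SAGA complex, at -0.39 (397.1 and 262.0) to Sp-TAF1L, of the TFIID family, at 0.81 (39.7 and 61.1, on 15 and 24 reads). The general coactivator model Sp-Ep300L had the same 93 reads in each library. Sp-Kat5 and the Tip60 complex models Sp-Brd8_1, Sp-Epc1, Sp-Dmap1, Sp-Dmap1_1 and Sp-Yeats4 all lay below the overall median, from -0.38 to -0.07. Their summed reads gave -0.09 (-0.19 to 0.01), an interval that includes that median.

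**Figure D3:**
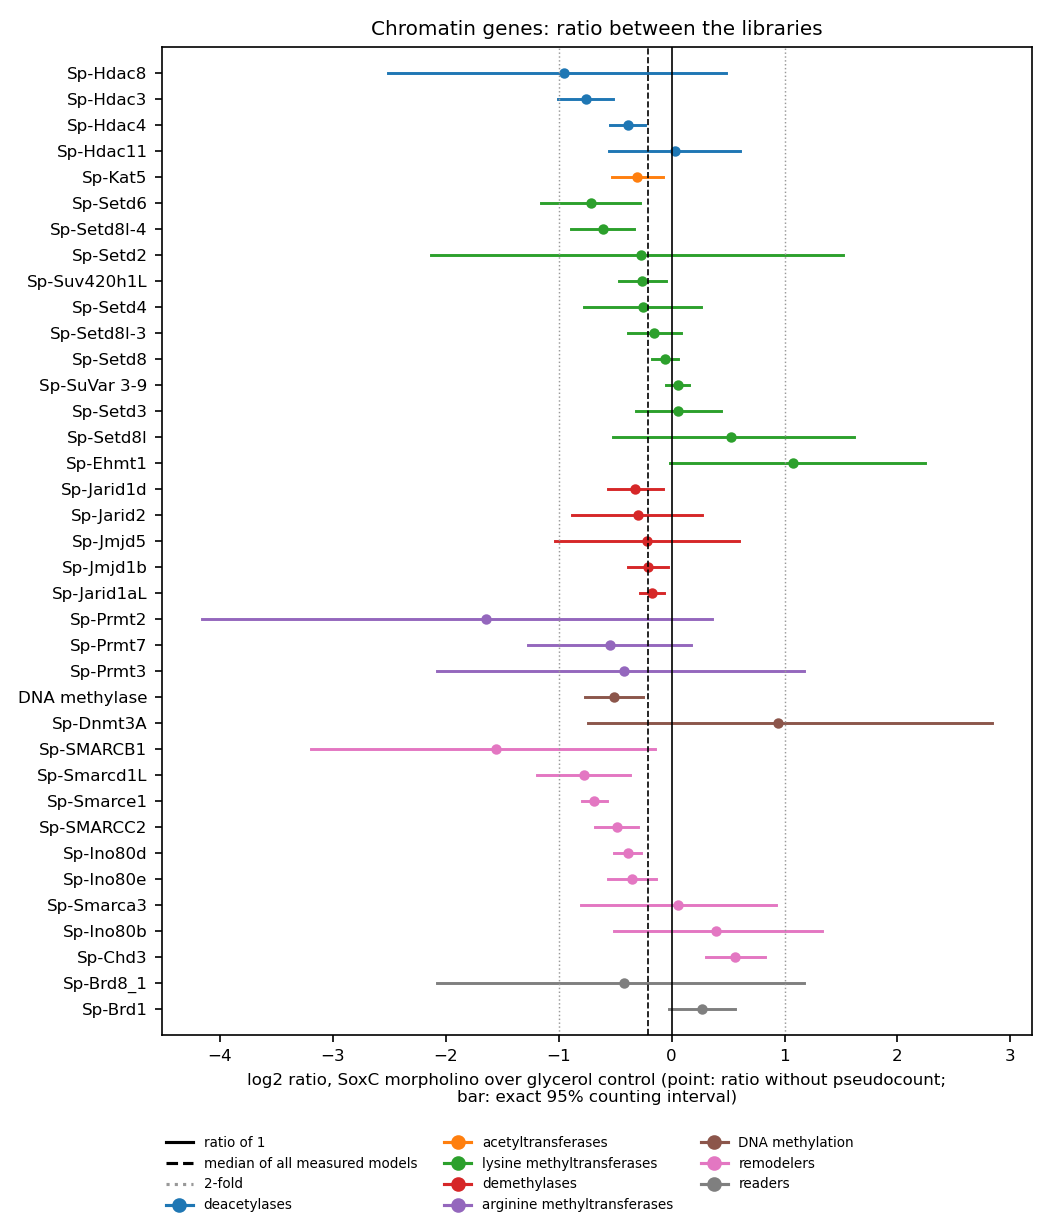
Log2 ratio of SoxC morpholino over glycerol control on the x axis for 37 measured chromatin genes, coloured by role; points are ratios without pseudocount and bars exact 95% counting intervals. The solid line is a ratio of 1, the dashed line the median of all measured models at -0.21 and the dotted lines 2-fold; bars are short for well covered genes such as Sp-Smarce1 and long for genes such as Sp-Prmt2.

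Lysine methyltransferases set both active and silent marks, and their 11 measured models spread to both sides, 5 below and 6 above the overall median, with a relative median of 0.05. The enzymes for H3K9, a mark of heterochromatin, were on the high side. Sp-SuVar 3-9, named for the Drosophila heterochromatin enzyme and the methyltransferase model with the most reads, had 3770.0 and 3909.8. The ratio of 1.04 (0.964 to 1.12) is level as deposited and 0.26 above the overall median. Sp-Ehmt1, of the G9a-GLP pair that acts in euchromatin, was the highest member, from 29.1 to 61.1, or 2.1-fold higher (0.989 to 4.74). It has 11 and 24 reads, its interval reached 1 as deposited, and it met the size rule once the overall median was set to 0, a rule that 1.55% of all models then met as higher and 2.38% as lower. The H3K9 enzyme model Sp-Setdb1 and a second Ehmt model, Sp-Ehmt1-2, were blank.

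The enzymes for H4K20 were represented by 5 models. Sp-Setd8, named for the monomethyltransferase active around mitosis, had 3494.6 and 3355.2, at 0.15 in relative log2 ratio. Its named relatives differed among themselves, with Sp-Setd8l-4 going from 698.9 to 457.9, 1.53-fold lower (1.26 to 1.86), Sp-Setd8l-3 from 818.1 to 735.1 and Sp-Setd8l from 37.1 to 53.4 on 14 and 21 reads. Reads of such related models may have been shared out between them, and the Sp-Setd8l-3 model also carries the name Sp-PppL_280. Summed over the 4 models, the family had 1907 and 1809 reads, a relative log2 ratio of 0.07 (-0.02 to 0.17). Most of these reads belong to Sp-Setd8, and without it the other 3 models were 1.25-fold lower (1.1 to 1.41), or -0.11 relative (-0.29 to 0.06). Sp-Suv420h1L, which adds the further methyl groups, went from 1088.1 to 908.1 and lay at -0.05 relative.

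Among the remaining SET-domain models, Sp-Setd6 was the lowest lysine methyltransferase. It went from 304.5 to 185.7, 1.64-fold lower (1.21 to 2.23), from 115 and 73 reads. In mammals its best known substrate is a subunit of the transcription factor NF-kappaB, not a histone. Sp-Setd3, whose mammalian counterpart methylates actin and not chromatin, had 312.4 and 325.6. Sp-Setd4 had 185.3 and 155.2, and Sp-Setd2, the H3K36 enzyme that travels with RNA polymerase, 7 and 6 reads. The Mll models Sp-Mll1L, Sp-Mll4l and Sp-Mll3, named for the H3K4 enzymes of the COMPASS complexes, were blank, as were Sp-Mllt and Sp-Mllt4. The last of these is a name for afadin, a cell junction protein, so the name stem also takes in genes outside chromatin. In the list of COMPASS partners and further methyltransferases 2 models were measured, Sp-Men1 at 0.05 and Sp-Hcfc1 at -0.02 relative, the latter on a model that also carries Sp-Hcfc2.

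Models with the lysine demethylase name stems Kdm, Jmjd and Jarid lay near the median of all measured models. A model with such a name need not be a demethylase. Of 8 models 1 was blank, 2 were below the level floor, and the 5 measured ones ran from -0.11 to 0.03 in relative log2 ratio. Sp-Jarid1aL, of the family that removes H3K4 methylation, had 4108.8 and 3635.0, from 1552 and 1429 reads, 1.13-fold lower (1.05 to 1.22) as deposited and 0.03 relative. Sp-Jarid1d, of the same family, had 810.1 and 648.7, 1.25-fold lower (1.05 to 1.48) and -0.11 relative. The Sp-Jarid1d model also carries the name Sp-Ataxin 7, a SAGA subunit. Sp-Jmjd1b, named for an H3K9 demethylase, had 1485.2 and 1287.2 and lay at 0.00 relative. Sp-Jarid2, a Polycomb partner without demethylase activity in mammals, lay at -0.09 and Sp-Jmjd5 at -0.01. Of these 5 models, 4 had at least 100 reads. Sp-Jmjd5_1 had 4 and 1 reads and Sp-Jmjd4l 1 in each library, and the model named both Sp-Jmjd2c and Sp-Kdm4aL was blank.

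Arginine methyltransferases had few reads, none over 100 in sum. Sp-Prmt7, which in mammals leaves a single methyl group on arginine, had 111.2 and 76.3, 1.46-fold lower (0.891 to 2.41). Sp-Prmt2 was the lowest at 23.8 and 7.6, 3.13-fold lower (0.779 to 17.9), from 9 and 3 reads. Sp-Prmt3, known for methylating a ribosomal protein, had 23.8 and 17.8. All 3 lay below the overall median and all 3 intervals included a ratio of 1. Sp-Prmt5_1 had 4 reads in each library and Sp-Prmt5 was blank.

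DNA methylation genes were covered by 2 models. The model named DNA methylase went from 791.6 to 557.1, 1.42-fold lower (1.19 to 1.7), from 299 and 219 reads and at -0.30 relative. Sp-Dnmt3A, of the de novo methyltransferase family, had 13.2 and 25.4 on 5 and 10 reads, 1.92-fold higher (0.598 to 7.17), so its direction is within counting error. Of the partner list, Sp-Tdg, a thymine glycosylase that removes oxidized methylcytosine in mammals, went from 5284.3 to 3744.4, 1.41-fold lower (1.32 to 1.51). Sp-Uhrf1L, of the family that guides maintenance methylation, had 6 and 5 reads, and Sp-Mbd-4 7 and 5. No Tet model was found by the name rule.

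Readers were 3 measured models and Sp-Brd2, Sp-Brd7 and Sp-Brd8 were blank. Sp-Brd1, a bromodomain scaffold of acetyltransferase complexes, had 460.7 and 554.5, 1.2-fold higher (0.982 to 1.48) and 0.47 in relative log2 ratio. Its model also carries the name Sp-Brpf1, the related scaffold, so the 2 genes cannot be separated. Sp-Brd8_1 was the lowest, at 23.8 and 17.8 on 9 and 7 reads.

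Polycomb partners had few reads in their lowest members. Of 8 measured models none met the size rule and 7 lay below the overall median, and the relative median was -0.24, beside 0 for all models. The whole interval lay below the overall median for 2 of the 8, beside 10.2% of all measured models. Both had at least 100 reads, as had 4 of the 8, and among all models with as many reads the share was 14.3%. Sp-L3mbtl3 was the lowest at 9 and 3 reads, and Sp-Phc2L_1 the highest at 36 and 49. Better covered was Sp-Eed, the core subunit of the H3K27 methyltransferase complex that binds its own mark, from 537.4 to 338.3 and 1.59-fold lower (1.27 to 1.99). The deubiquitinase model Sp-Bap1 went from 736.0 to 513.8, 1.43-fold lower (1.19 to 1.73). Sp-Mtf2, an accessory subunit of the same methyltransferase complex, was at -0.09 and the ring-finger gene Sp-Bmi1 at -0.07 relative. No Ezh model, which would hold the catalytic subunit, was found by the name rule.

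The 10 measured remodeler partners had a relative median of 0.08, with 4 below the overall median and 6 above. Beyond the SWI/SNF subunits, Sp-Cecr2l, of a family that works with ISWI remodelers, went from 222.4 to 134.8 and was 1.65-fold lower (1.16 to 2.37). Sp-Hells, of the SNF2 family linked to DNA methylation in mammals, was the highest at 0.64 but rests on 12 and 17 reads. Sp-PolE3, a histone-fold subunit, had 1048.4 and 1053.1. Over the 50 measured partner models of all lists together, the relative median was -0.07, with 30 below the overall median and 20 above, close to the members themselves.

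**Figure D4:**
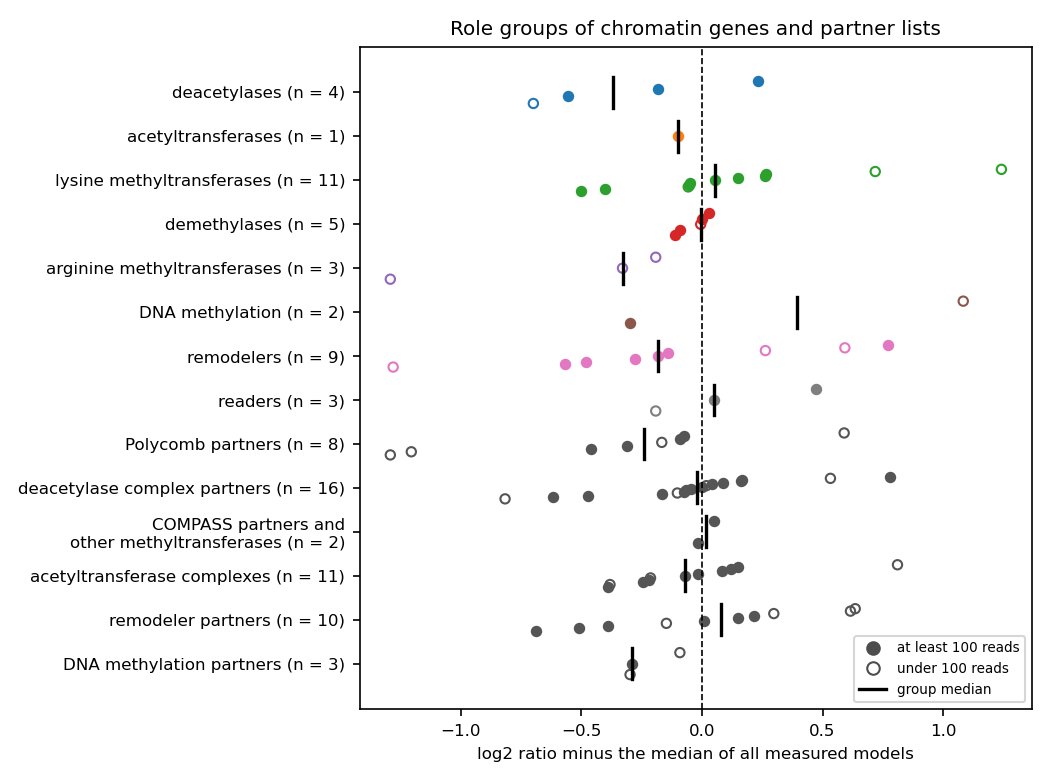
Relative log2 ratio (log2 ratio minus the median of all measured models) on the x axis for the members by role and for the partner lists in grey; filled points have at least 100 reads over both libraries, open points fewer, and black bars are group medians. Demethylases sit between -0.11 and 0.03, while lysine methyltransferases and remodelers spread to both sides.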

How the data were processed

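RNA sequencing of whole embryos gave 1 library per group, so no test between the groups was possible. The deposited values are a normalized signal per transcript model, made by the authors, and per the submitters' processing notes the tools included CASAVA 1.8 and Bowtie. How reads were counted, whether strand was used, how values were scaled and on which genome build is not given in the sources used here. Values were whole multiples of 2.65 in the control and 2.54 in the morpholino table, to within 0.1 read for at least 99.96% of models, so reads were recovered as 4414503 and 4763997. A model that overlapped several gene predictions was counted once, and the 4326 models blank in both tables were treated as missing. Ratios used a pseudocount of 0.5 reads for log2 values and none for folds, with exact Clopper-Pearson 95% intervals that cover counting error only (SciPy 1.17.1 in Python 3.11.15). The calculation was tested on simulated data.

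Members followed a rule on the gene name. The members and lists were chosen with earlier results of these data known. The genes named in full are those past the size rule and, in each role group, the model with the most reads, the highest and the lowest. Further genes, and all sets of complex subunits, were named after their values were seen. Partner lists were matched by symbol, allowing for a hyphen or copy suffix, and 65 of 146 entries had a matching name. None of the 43 members matched the RefSeq gene table (Spur_5.0) by symbol or identifier, so no positions are given. Some genes of the lists are counted but not reported here by name. Other scalings, floors, folds and pseudocounts were tried as alternatives.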

Additional observations from a re-analysis of the deposited data

How the results depend on the processing

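Counts of members past the size rule depended on the scaling. The reported counts are 0 higher and 1 lower. Scaling by the median of ratios, by the upper quartile and, chosen after the data were seen, totals without the most abundant model each gave 1 higher, Sp-Ehmt1, and 0 lower. That is 2.63% and 0% of the members. Over all measured models the same 3 scalings gave, in that order, 1.56%, 1.26% and 1.34% higher and 2.38%, 2.8% and 2.79% lower. In counts, the median of ratios gave 138 higher and 210 lower models, in place of 58 and 419. A floor of 5 CPM gave 0 lower members, since Sp-SMARCB1 lies under it, beside 2.68% of all models past that floor. A fold of 1.5 gave 6 lower: Sp-Hdac3, Sp-SMARCB1, Sp-Setd6, Sp-Setd8l-4, Sp-Smarcd1L and Sp-Smarce1. That is 15.8% of the 38, beside 9.91% of all measured models. The 2-fold limit without the interval gave 1 higher and 2 lower, or 2.63% and 5.26%, beside 2.11% and 8.62% of all measured models. Testing the recovered reads with an exact binomial test, Benjamini-Hochberg adjusted and also chosen after the data were seen, gave 0 lower and 0 higher members, and 249 lower and 28 higher models in all. It compares these libraries, not the conditions. Under total reads, no floor and models on 1 row, both counts were as reported. The 1 lower member was then 2.63%, 2.33% and 3.57% of the members, in that order. Beside it, 5.43%, 3.39% and 4.77% of all models were lower and 0.57%, 0.5% and 0.58% higher. The members' median log2 ratio ran from -0.33 with total reads to -0.07 with the median of ratios. Of the 38 measured members, 6 changed sign under at least 1 other scaling, among them Sp-Hdac11, Sp-Jarid1aL, Sp-Jmjd1b, Sp-Setd8 and Sp-Setd8l-3. Of 114 values of named genes under other scalings and pseudocounts, 12 left their counting interval, all from other scalings of Sp-Hdac4, Sp-Jarid1aL, Sp-SuVar 3-9 and Sp-Smarce1. No paired analysis was possible because a group holds a single library.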
